A study of Mus musculus with 8 samples.

Results

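The genes described here are 10 of the 22173 in the deposited table. They comprise the 5 subunit genes of the muscle acetylcholine receptor (Chrna1, Chrnb1, Chrnd, Chrne and Chrng) and 5 genes for the proteins that gather the receptor under the nerve terminal (Agrn, Lrp4, Musk, Dok7 and Rapsn). They were chosen by name for their place at the neuromuscular junction, and all 10 were in the table, each with the Entrez identifier of the mouse RefSeq gene of that symbol. RNA was sequenced from skeletal muscle of C57BL/6 mice made obese by diet, 24 weeks old when divided into groups of 8. The liraglutide mice received liraglutide, a GLP-1 receptor agonist, at 0.2 mg/kg under the skin each day for 9 weeks. The model mice, obese as well, received saline. From each group 4 animals were sequenced, each as its own library, and the labels name neither the muscle nor the sex. No lean group enters the comparison, so it sets treated obesity against untreated obesity.

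At the neuromuscular junction the motor axon releases acetylcholine onto a pentameric receptor channel in the fibre membrane. Adult receptors hold the epsilon subunit, whereas the receptors of fetal or denervated muscle hold gamma in its place, and alpha, beta and delta are common to both forms. Agrin from the nerve binds Lrp4, which activates the receptor kinase MuSK; Dok7 binds MuSK inside the fibre and sustains its activity, and rapsyn, the product of Rapsn, then clusters the receptors. Several of these genes are transcribed mainly by the few nuclei that lie under the synapse. RNA of whole muscle therefore mixes those nuclei with all others, and fewer synaptic nuclei and less RNA per nucleus cannot be told apart.

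Of the 10 genes, 9 had enough reads to be tested and only Rapsn passed. The receptor scaffold gene Rapsn rose 1.40-fold with liraglutide, and the other 8, among them all 4 receptor subunits tested, did not pass the test. The fetal subunit Chrng was too scarce to test, with 7 counts in all. With 1 gene higher and 0 lower the tested members were called in 11.1% of cases, against 10.3% of all 12963 tested genes (5.45% called higher and 4.83% called lower), so the share of calls was near that of the table as a whole. The median log2 fold change, liraglutide minus model, was 0.14 over the 9 genes and -0.01 over all tested genes. At an unadjusted p under 0.05 the count was again 1 of the 9, against 26.5% of all tested genes. A call here means a Benjamini-Hochberg adjusted p under 0.05 in the quasi-likelihood test of edgeR over all tested genes.

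Library totals ran from 17133476 to 18244579 counts in the liraglutide group and from 15033631 to 16622716 in the model group. The tissue label fitted its markers in every library, since 10 genes of the muscle fibre, such as actin and creatine kinase, summed to 176132 to 184069 CPM (counts scaled to the library total) in liraglutide libraries and 171253 to 176051 in model libraries. Transcripts of other tissues differed between the groups. The 8 adipocyte markers summed to 834 to 1231 CPM with liraglutide and 1417 to 2238 CPM in model libraries. The 9 epididymis markers in the table summed to 0.226 to 1.43 CPM with liraglutide and 24.4 to 50.2 CPM in model libraries. Their part in the results below was not tested. Levels below are in FPKM, the authors' read counts divided by gene length and library total. Fold changes are from edgeR, which also scales each library by a TMM factor. These factors were 0.954 to 0.988 in liraglutide libraries and 1.02 to 1.03 in model libraries. A fold change can therefore differ from the ratio of the FPKM means, also in sign.

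Rapsn encodes rapsyn, the scaffold under the membrane that binds receptor and cytoskeleton. It stood at 11.4, 14.0, 10.8 and 11.9 FPKM in liraglutide libraries 1 to 4, against 8.50, 8.92, 8.51 and 10.2 FPKM in model libraries 1 to 4. Every liraglutide library lay above every model library, with liraglutide 2 highest, and the nearest values were those of liraglutide 3 and model 4. FPKM ranges of the groups did not overlap for 1 of the 9 tested members, Rapsn, against 20.3% of all tested genes (liraglutide above in 4.91%). The mean was 12.0 ± 1.38 FPKM with liraglutide and 9.04 ± 0.817 FPKM in model mice (SD, n = 4 each). The log2 fold change was 0.49 (SE 0.092), with a 95% interval of the fold from 1.21 to 1.62 and an edgeR adjusted p of 0.0117. With raw library sizes it was 0.41 (edgeR adjusted p = 0.0255).

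**Figure D1:**
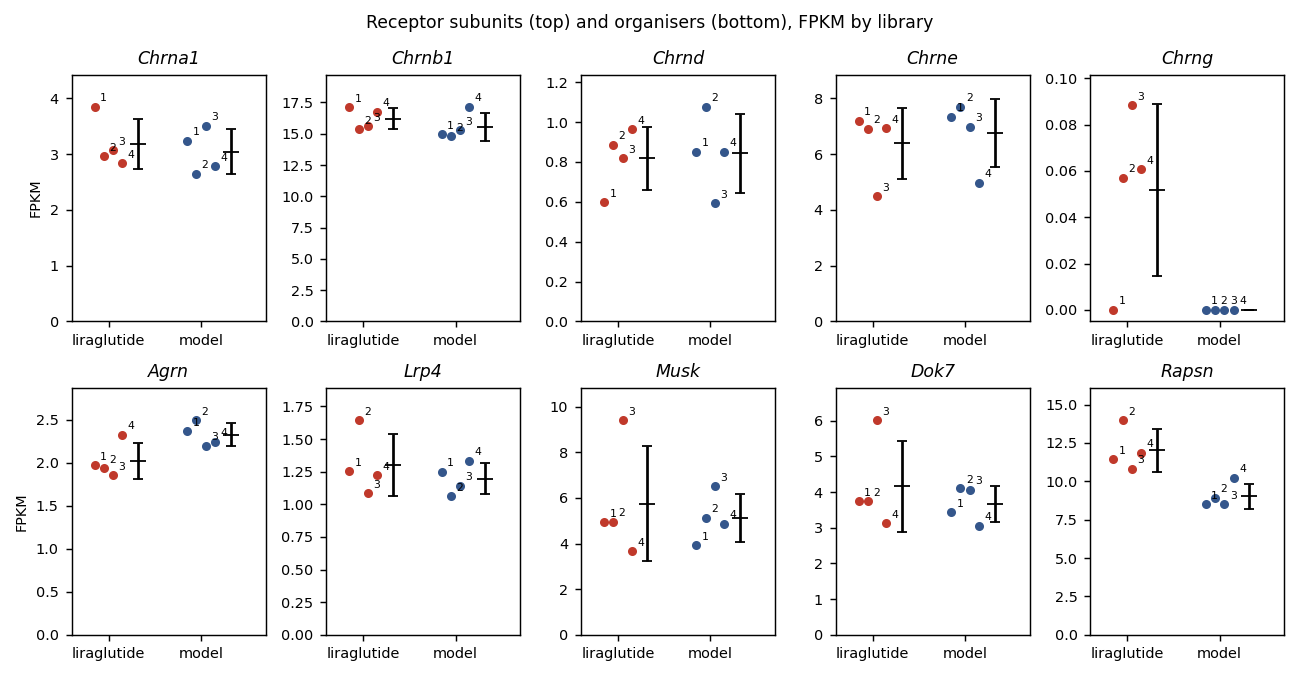
FPKM (vertical axis, starting at 0 or, for Chrng, just below it) of each of the 10 genes in the 4 liraglutide (left, red) and 4 model libraries (right, blue); numbers are replicate numbers and black bars the mean ± SD. The Rapsn values of the liraglutide libraries, 10.8 to 14.0, all lie above those of the model libraries, 8.50 to 10.2, while the groups overlap for the other 9 genes.

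The call of Rapsn was kept on leaving out any single library, with log2 fold changes from 0.42 to 0.55 and edgeR adjusted p from 0.0168 to 0.0429. It ended when liraglutide 2 and model 3, the libraries with the lowest adipocyte sum of their groups (834 and 1417 CPM), were both left out (0.39, edgeR adjusted p = 0.0525). With an offset for gene length and GC content it was 0.36 (edgeR adjusted p = 0.0495). The fibre genes Ckm and Acta1, of creatine kinase and skeletal actin, rose 1.23-fold and 1.18-fold in the same libraries. The Acta1 call ended with limma and with length and GC. Of the 10 fibre markers 4 were called higher and 0 lower, beside 5.45% and 4.83% of all tested genes. Among those without a call were Myh4 (0.998-fold) and Ttn (0.890-fold). The part of fibre RNA in the Rapsn result was not tested. Within a library, the ratio of Rapsn to the receptor subunit Chrnb1 in FPKM was 0.667, 0.911, 0.692 and 0.708 with liraglutide, against 0.569, 0.603, 0.557 and 0.596 in model mice. These ratios, which do not depend on library scaling, did not overlap either, but they use the same Rapsn values again and are no separate evidence. The ratios of Rapsn to Chrna1 and to Chrne did overlap between groups, and none of the Rapsn ratios was planned. In the RefSeq annotation of GRCm38.p6 a further entry, Gm13778, overlaps Rapsn, and whether the authors' counting used strand is not given in the sources used here.

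**Figure D2:**
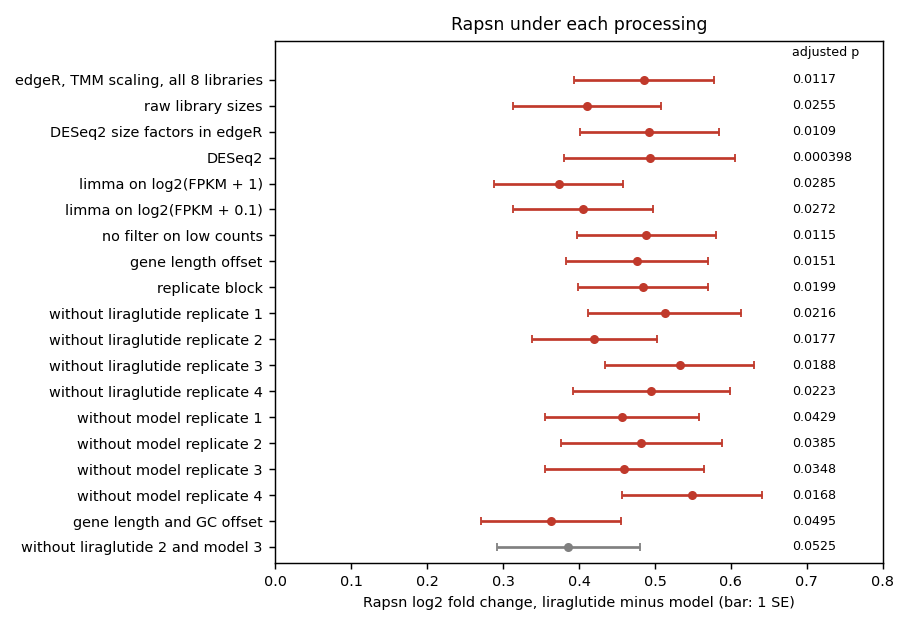
Log2 fold change of Rapsn, liraglutide minus model (horizontal axis; bars are 1 SE), under each processing, with the adjusted p at the right; red marks an adjusted p under 0.05 and grey one above it. All 19 estimates lie between 0.36 and 0.55, and the grey one is the fit without liraglutide 2 and model 3.

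The adult receptor subunits did not pass. Chrna1, the alpha subunit that carries most of the acetylcholine binding site, had 2.84 to 3.85 FPKM with liraglutide and 2.65 to 3.51 FPKM in model mice. Its fold of 1.10 had a 95% interval of 0.908 to 1.33 (edgeR adjusted p = 0.525). Chrnb1, the beta subunit, averaged 16.2 ± 0.863 FPKM with liraglutide and 15.5 ± 1.10 FPKM in model mice (SD, n = 4 each). Its fold of 1.10 was the most closely bounded of the receptor genes, from 0.995 to 1.22 (edgeR adjusted p = 0.211). Both genes were thus without a call, and a change within these intervals could not be told from no change with 4 animals a group.

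Chrnd, the delta subunit, was the scarcest of the adult subunits, with 31 to 49 counts per liraglutide library and 29 to 48 per model library. It averaged 0.817 ± 0.158 FPKM with liraglutide and 0.843 ± 0.198 FPKM in model mice (SD, n = 4 each). The interval of its fold was wide, from 0.723 to 1.45 (edgeR adjusted p = 0.943). The sign of its log2 change, 0.03, turned with raw library sizes (-0.04) and limma.

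Chrne, the epsilon subunit that marks the adult receptor, stood at 7.20, 6.91, 4.50 and 6.93 FPKM in liraglutide libraries 1 to 4, against 7.34, 7.70, 6.98 and 4.97 FPKM in model libraries 1 to 4. Each group thus held 3 libraries near 7 FPKM and 1 low library, liraglutide 3 and model 4. The log2 fold change was -0.01 (fold interval 0.764 to 1.30, edgeR adjusted p = 0.988), and it turned positive without liraglutide 3 (0.13). As a share of the summed FPKM of the 5 subunits, Chrne made up 23.8 ± 3.49% with liraglutide and 25.7 ± 4.46% in model mice (SD, n = 4 each).

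Chrng, the fetal gamma subunit, had 0, 2, 3 and 2 counts in liraglutide libraries 1 to 4 and 0 counts in every model library. Reads of it were thus seen in 3 of the liraglutide libraries and in 0 of the model libraries, but the 7 counts lie beside 747 counts of Chrne. The pooled level was 0.0992 CPM with liraglutide (exact 95% Poisson interval 0.0399 to 0.204, counting error only), while 3 counts, the floor that a count of 0 allows, stand for 0.0469 CPM over the model group. The pooled liraglutide level was 2.12 times that floor. The lower limit of its interval, 0.0399 CPM, lay below the floor, so no least fold can be given. The exact two-sided permutation test of the CPM values gave p = 0.143, where the smallest p that 4 against 4 libraries allow is 0.0286. Since all model libraries were at 0, leaving out liraglutide 1, also at 0, separates the groups by construction, and the exact permutation p of 0.0286 that this gives is no evidence.

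Gamma reads made up 0.928% of gamma and epsilon reads together in the liraglutide group (exact binomial 95% interval 0.374 to 1.90%). Set against epsilon counts alone, they were 0.937%. In the model group a count of 0 allows up to 0.421% of the 713 epsilon counts. The lower limit of the liraglutide interval lay below that ceiling. The 2 percentages have different bases and cover counting error only, so setting them side by side is no test of the groups. The log2 ratio of gamma to epsilon, per length and with 0.5 added to each count, was -6.87 ± 1.46 with liraglutide and -8.68 ± 0.243 in model mice (SD, n = 4 each; exact two-sided permutation p = 0.143). The model values and that of liraglutide 1 are set by the added 0.5 and by the Chrne count, so they are neither levels nor limits. The adult subunit was by far the more abundant in all 8 libraries.

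**Figure D3:**
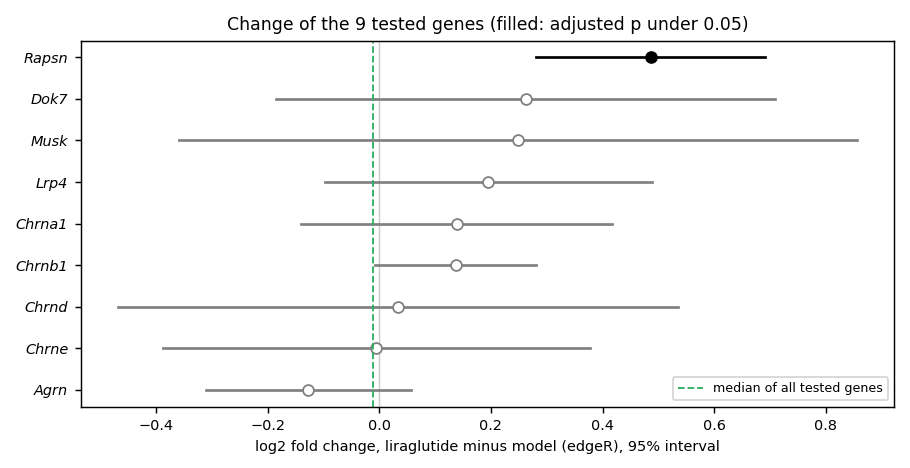
Log2 fold change, liraglutide minus model, of the 9 tested genes (horizontal axis) with 95% intervals; the filled point passed the test, and the dashed line marks the median of all tested genes, -0.01. The interval of Rapsn lies wholly above 0, those of the other 8 include it, and those of Musk, Chrnd and Dok7 are the widest.

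The promoters of the fetal and adult subunits are shown because these subunits replace each other in the receptor, together with those of Chrna1, which both receptor forms need, and Musk. They come from the RefSeq table of promoters for GRCm38.p6, which held 7 of the 10 genes, and span 250 bases before to 50 after the annotated start, 5′ to 3′ on the strand of the gene. Chrng lies at chr1:87205561-87205860 on the plus strand and Chrne at chr11:70619145-70619444 on the minus strand. Chrna1 lies at chr2:73580289-73580588 on the minus strand and Musk at chr4:58285712-58286011 on the plus strand. Capitals mark the E-box CAGCTG, the kind of site that myogenic factors such as MyoD and myogenin bind, and the N-box TTCCGG, which ETS factors bind in synaptic genes, on either strand.
Chrng: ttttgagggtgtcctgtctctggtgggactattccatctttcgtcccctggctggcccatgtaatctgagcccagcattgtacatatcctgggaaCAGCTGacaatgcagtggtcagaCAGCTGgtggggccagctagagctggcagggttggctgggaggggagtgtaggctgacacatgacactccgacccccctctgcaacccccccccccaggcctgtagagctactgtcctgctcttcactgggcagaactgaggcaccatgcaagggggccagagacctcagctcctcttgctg
Chrne: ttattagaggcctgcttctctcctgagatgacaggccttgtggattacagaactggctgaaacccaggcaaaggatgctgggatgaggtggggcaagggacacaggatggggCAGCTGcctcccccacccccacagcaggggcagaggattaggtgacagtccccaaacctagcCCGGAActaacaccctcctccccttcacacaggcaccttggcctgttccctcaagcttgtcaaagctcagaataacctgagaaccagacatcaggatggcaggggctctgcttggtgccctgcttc
Chrna1: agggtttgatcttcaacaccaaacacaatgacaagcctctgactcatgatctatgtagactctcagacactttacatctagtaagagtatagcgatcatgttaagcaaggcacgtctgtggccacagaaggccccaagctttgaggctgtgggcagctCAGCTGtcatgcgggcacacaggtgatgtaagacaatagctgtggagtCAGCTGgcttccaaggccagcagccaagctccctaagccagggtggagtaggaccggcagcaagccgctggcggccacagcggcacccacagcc
Musk: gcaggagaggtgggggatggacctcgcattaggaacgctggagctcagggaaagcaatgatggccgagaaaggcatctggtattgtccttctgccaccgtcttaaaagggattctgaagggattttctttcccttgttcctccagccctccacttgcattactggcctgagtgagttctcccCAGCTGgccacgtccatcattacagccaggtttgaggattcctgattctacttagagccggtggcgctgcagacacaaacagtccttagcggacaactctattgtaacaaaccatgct
The gamma promoter holds 2 copies of CAGCTG, starting 155 and 132 bases before the start, and no TTCCGG. The epsilon promoter holds 1 CAGCTG and, 76 bases before the start, 1 TTCCGG read on the opposite strand; it is the only promoter of the 9 listed for these genes that holds TTCCGG. Chrna1 has 2 copies of CAGCTG and Musk 1, while the listed promoters of Agrn, Dok7 and Chrnb1 have 0. Of all 32851 promoters of this table, 16.3% hold CAGCTG and 14.9% hold TTCCGG, and the 2 motifs do not overlap in these sequences. The looser E-box CANNTG, of which CAGCTG is a special case, occurs in 72.3% of them. These matches describe the sequences only.

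Musk, the receptor kinase that starts postsynaptic assembly, had the largest standard error among the 9 tested members (0.272 on the log2 scale). It stood at 4.93, 4.96, 9.41 and 3.67 FPKM in liraglutide libraries 1 to 4, against 3.94, 5.14, 6.50 and 4.86 FPKM in model libraries 1 to 4. Liraglutide 3 was highest, model 3 came next, and the other 3 liraglutide libraries lay within or below the model range. The log2 fold change was 0.25 (fold interval 0.780 to 1.81, edgeR adjusted p = 0.614), and without liraglutide 3 it turned to -0.10 (edgeR adjusted p = 0.769).

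Dok7, the adaptor that keeps MuSK active, stood at 3.75, 3.74, 6.02 and 3.13 FPKM in liraglutide libraries 1 to 4, against 3.44, 4.10, 4.07 and 3.06 FPKM in model libraries 1 to 4. Here too liraglutide 3 was the highest of the 8 libraries and the others overlapped. Its log2 fold change of 0.26 (fold interval 0.880 to 1.63, edgeR adjusted p = 0.446) was 0.02 without liraglutide 3 (edgeR adjusted p = 0.943). The same library thus had the highest Musk and Dok7, the highest count of Chrng (3, against 2 in liraglutide 2 and in liraglutide 4) and the lowest Chrne. Relative to the mean of the model libraries, Musk was 1.84-fold and Dok7 1.64-fold in it, while Chrna1, Chrnb1 and Chrnd were 1.01-fold, 1.01-fold and 0.972-fold. In FPKM the ratio of Musk to Chrne was 2.09 in liraglutide 3, against 0.530 to 0.979 in the other 7 libraries, a ratio chosen after the values were seen. The slow myosin gene Myh7, a fibre marker, was also highest in liraglutide 3, at 204 FPKM. In the other 7 libraries Myh7 ran from 81.5 to 156 FPKM, highest in model 4, the other library low in Chrne. Myh7 too was named after its values were seen, and its part in these values was not tested.

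**Figure D4:**
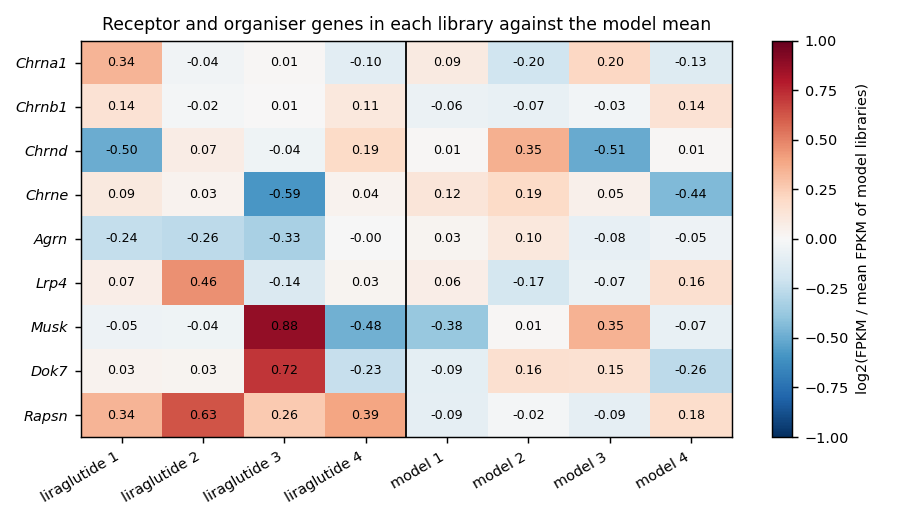
Log2 of the FPKM in each library over the mean FPKM of the model libraries (colour and printed value) for the 9 tested genes, liraglutide libraries left of the black line and model libraries right of it. In liraglutide 3 Musk (0.88) and Dok7 (0.72) are highest and Chrne (-0.59) is lowest, and the Rapsn row is positive in all 4 liraglutide libraries.

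Agrn encodes agrin, of which motor neurons make the form that activates MuSK, while muscle and other tissues make further forms that gene counts do not separate. It had 1.85 to 2.32 FPKM with liraglutide and 2.19 to 2.49 FPKM in model mice. The mean was 2.02 ± 0.208 FPKM with liraglutide and 2.32 ± 0.134 FPKM in model mice (SD, n = 4 each), with a fold of 0.916 (interval 0.806 to 1.04, edgeR adjusted p = 0.361). Liraglutide 4 alone reached into the model range. Lrp4, the agrin receptor of the fibre, had 1.08 to 1.65 FPKM with liraglutide and 1.06 to 1.33 FPKM in model mice, with liraglutide 2 highest (fold 1.14, interval 0.935 to 1.40, edgeR adjusted p = 0.381). The ligand, its receptor and the kinase that they activate were thus all without a call.

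Levels per length differed widely among the genes, and their order was mostly shared by the libraries. Over all 8 libraries Chrnb1 was highest, followed by Rapsn, Chrne, Musk, Dok7, Chrna1, Agrn, Lrp4, Chrnd and Chrng. The ranges of Chrnb1 and Rapsn did not overlap, nor did those of Rapsn and Chrne, of Chrna1 and Agrn, of Agrn and Lrp4, or of Chrnd and Chrng. The neighbours Chrne and Musk, Musk and Dok7, Dok7 and Chrna1, and Lrp4 and Chrnd overlapped. Although the adult receptor holds alpha in excess of each other subunit, the FPKM of Chrnb1 was 5.15 ± 0.597 times that of Chrna1 with liraglutide and 5.18 ± 0.845 times in model mice (SD, n = 4 each). FPKM divides by the gene length behind the deposited values, 4320 bases for Chrna1 and 2149 for Chrnb1. RefSeq entries overlap Chrna1 (Gm30940), Agrn (Gm46878) and Chrne (4930544D05Rik, with 2 counts over all libraries).

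Around these 10 genes, 8 further lists of the junction and its control held 91 genes, of which 76 were tested. Of these, 3 rose (Dvl1, Plec and Myod1) and 7 fell (Cdc42, Bche, Lama4, Col4a5, Nid2, Utrn and Fbxo32), 13.2% in all beside the 10.3% of all tested genes. Of the 7 falls, 4 stood in the basal lamina list, and the 3 rises were spread over 3 lists. These counts moved with single libraries: 0 fell without model 1, 1 without model 4 or liraglutide 3, 2 without model 2, 3 without liraglutide 1 or liraglutide 2, and 4 without model 3, and 1 rose without model 1 or model 4. Without both liraglutide 2 and model 3, 2 rose and 1 fell.

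**Figure D5:**
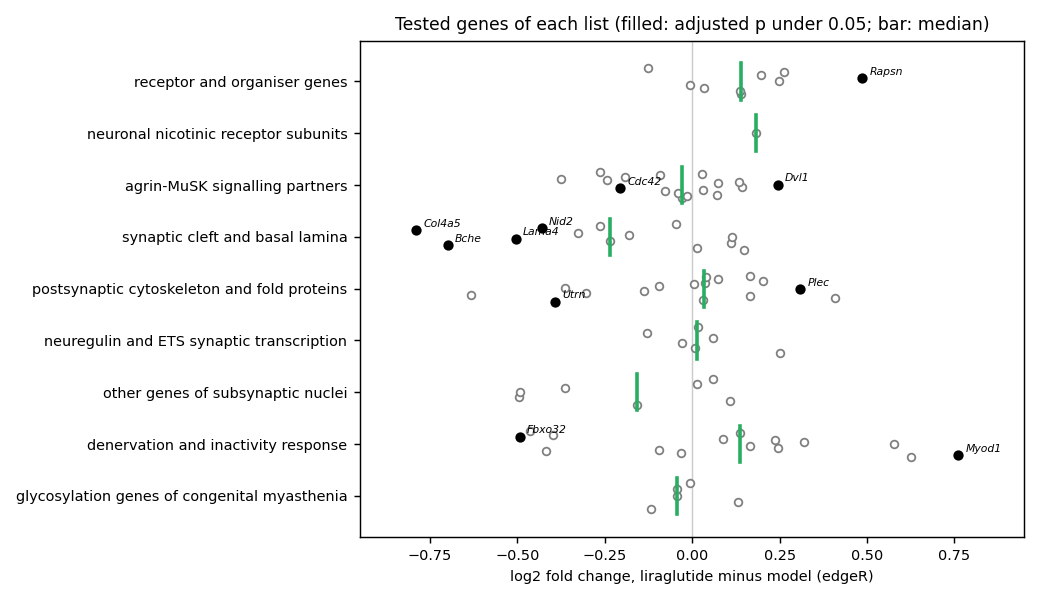
Log2 fold change, liraglutide minus model (horizontal axis), of every tested gene in the receptor and organiser genes and the 8 further lists; filled points passed the test and are named, and green bars are medians. The list of the synaptic cleft and basal lamina has the lowest median, -0.24, and 4 of the 10 filled points outside the top row.

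Among 17 signalling partners of agrin and MuSK, 1 rose and 1 fell (median log2 fold change -0.03), beside 5.45% of all tested genes called higher and 4.83% lower. Dvl1, a Dishevelled protein that binds MuSK, rose to 45.3 ± 0.869 FPKM with liraglutide, against 40.3 ± 0.912 FPKM in model mice (SD, n = 4 each; edgeR adjusted p = 0.00649). The call of Dvl1 was kept on leaving out any single library and ended with the length and GC offset (0.19, edgeR adjusted p = 0.0562). Cdc42, a small GTPase of the cytoskeleton, fell by 0.21 on the log2 scale (edgeR adjusted p = 0.0443), a call that ended without any single library (adjusted p up to 0.120), with a gene length offset (-0.06, adjusted p = 0.443) and with the replicate number as a block (0.0544). Apc, a microtubule-binding tumour suppressor, did not pass at -0.19 (edgeR adjusted p = 0.0602).

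In the list of the synaptic cleft and basal lamina, 4 of 13 fell and 0 rose (median -0.24, beside -0.01 for all tested genes and beside the lower adipocyte markers given above). Of all tested genes 4.83% were called lower and 5.45% higher. Bche, the butyrylcholinesterase gene, was at 1.62 ± 0.379 FPKM with liraglutide and 2.76 ± 0.255 FPKM in model mice (SD, n = 4 each) and fell by 0.70 as a log2 change (edgeR adjusted p = 0.0169). Its call ended without model 1 (edgeR adjusted p = 0.0559), without both liraglutide 2 and model 3 (0.0539) and with the length and GC offset (0.0707). Ache, the acetylcholinesterase gene, stood at 6.29 ± 1.12 FPKM with liraglutide and 5.98 ± 0.550 FPKM in model mice, without a call. Colq, whose collagen tail anchors that enzyme in the cleft, stood at 2.55 ± 0.281 FPKM with liraglutide and 2.65 ± 0.649 FPKM in model mice (SD, n = 4 each), also without a call. The basement membrane genes Col4a5, Nid2 and Lama4 fell by 0.79, 0.43 and 0.50 on the log2 scale, and each call ended on leaving out any 1 of 6 libraries (adjusted p up to 0.0665, 0.0768 and 0.109) and without both liraglutide 2 and model 3. With the length and GC offset the Col4a5 and Lama4 calls ended too. Of the laminin chains, Lamb2, which is concentrated at synapses, stood at 34.5 ± 1.31 FPKM with liraglutide and 33.7 ± 1.01 FPKM in model mice without a call (edgeR adjusted p = 0.132). Ache, Colq, Lama4 and Lamb2 were named after their values were seen.

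Of 16 genes of the postsynaptic cytoskeleton and folds, 1 rose and 1 fell (median 0.03), beside 5.45% of all tested genes called higher and 4.83% lower. Plec, the cytoskeletal linker plectin, rose 1.24-fold (edgeR adjusted p = 0.0214), a call that ended without model 1 or model 4 (adjusted p up to 0.0631) and with limma. Utrn, the dystrophin relative utrophin that lines the synaptic folds, fell to 3.02 ± 0.393 FPKM with liraglutide, against 4.18 ± 0.422 FPKM in model mice (SD, n = 4 each; edgeR adjusted p = 0.0342). The Utrn call ended without any 1 of 6 libraries (adjusted p up to 0.0955), with a gene length offset (0.0856), with the replicate number as a block (0.0561) and without both liraglutide 2 and model 3 (0.0664). Sntb1, a syntrophin, did not pass at -0.63 (edgeR adjusted p = 0.0566).

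Transcription factors and signals of synaptic nuclei gave 0 calls in edgeR. Of all tested genes, 10.3% were called in edgeR and 26.5% had an unadjusted p under 0.05. Over all genes DESeq2 called 820 higher and 711 lower, and limma on log2(FPKM + 1) called 359 and 1049. In the neuregulin and ETS list, 6 of 9 genes were tested and 1 had an unadjusted p under 0.05, with 0 calls by DESeq2 and 1 by limma. This was Gabpa, an ETS factor of the N-box, at 6.58 ± 0.149 FPKM with liraglutide and 7.58 ± 0.165 FPKM in model mice (SD, n = 4 each; edgeR adjusted p = 0.0998). Erbb2, a neuregulin receptor, was at 0.25 and Etv5, an ETS factor of synaptic nuclei, at 0.06 on the log2 scale. Among 7 tested of 9 other genes of synaptic nuclei, Gramd1b (-0.50, edgeR adjusted p = 0.0622), Vav3 (-0.49, 0.107) and Phldb2 (-0.36, 0.112) came nearest to a call, 4 had an unadjusted p under 0.05, DESeq2 called 1, Gramd1b, and limma on log2(FPKM + 1) called 1, Vav3 (limma adjusted p = 0.0471). The 5 glycosylation genes of congenital myasthenia, led by Gfpt1 at -0.12, Dpagt1 at 0.13 and Alg2 at -0.04, had 0 calls by edgeR, DESeq2 or limma and 0 with an unadjusted p under 0.05 (edgeR adjusted p from 0.220 for Gfpt1).

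The list of genes that respond to denervation and inactivity had 1 of 15 higher and 1 lower (median 0.14), beside 5.45% and 4.83% of all tested genes. Myod1, a myogenic factor of E-boxes, rose 1.69-fold (edgeR adjusted p = 0.0249), a call that ended without liraglutide 3 or any single model library (up to 0.0681), and with the length and GC offset or without both liraglutide 2 and model 3. Fbxo32, the atrophy ubiquitin ligase atrogin-1, fell by 0.49 on the log2 scale (edgeR adjusted p = 0.0303), a call that ended without any 1 of 6 libraries (up to 0.0816) and with either length offset. Ncam1, an adhesion molecule that spreads over denervated fibres, stood at 1.28 ± 0.0417 FPKM with liraglutide and 1.20 ± 0.0954 FPKM in model mice without a call (edgeR adjusted p = 0.231). Myog, the myogenic factor most tied to denervation, had 7.84, 2.48, 4.05 and 7.26 FPKM with liraglutide, against 3.54, 2.25, 2.62 and 6.30 FPKM in model mice, overlapping groups without a call (edgeR adjusted p = 0.355). Myog was named after its values were seen, and no gene of this list was tested against Musk.

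Apart from Chrna2, the neuronal receptor subunits were nearly silent in this muscle. Of 11 such genes only Chrna2 was tested, at 1.28 ± 0.347 FPKM with liraglutide and 1.19 ± 0.371 FPKM in model mice (SD, n = 4 each; edgeR adjusted p = 0.716). Chrna3, Chrna6, Chrnb3 and Chrnb4 had 0 counts in all 8 libraries.

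The nerve side of the junction is scarcely represented in muscle RNA, since the cell bodies of motor neurons lie in the spinal cord. The motor axon markers Chat and Slc18a3 had 0 counts in every library, and 2 of 12 were tested. Stmn2 did not pass (log2 fold change 0.17, edgeR adjusted p = 0.762). The choline transporter gene Slc5a7 fell by 2.20 on the log2 scale (edgeR adjusted p = 0.0115), with 27, 9, 17 and 45 counts in liraglutide libraries 1 to 4, against 158, 67, 103 and 108 in model libraries 1 to 4. The epididymis markers were lower with liraglutide as well. Gpx5 had 8, 12, 2 and 4 counts in liraglutide libraries 1 to 4, against 449, 168, 359 and 334 in model libraries 1 to 4. Adam7 had 13 counts over the liraglutide group, against 543 over the model group. In both Slc5a7 and Gpx5, model 1 was highest and model 2 lowest of the model group. In the liraglutide group the orders differed, with liraglutide 2 lowest in Slc5a7 and highest in Gpx5. The part of epididymal tissue in the Slc5a7 result was not tested.

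Markers of Schwann cells, which wrap the axon and cap the terminal, gave 0 calls among 10 tested in edgeR and 0 by DESeq2 or limma. At an unadjusted p under 0.05 there were 0, beside 26.5% of all tested genes. The markers summed to 110 to 165 CPM with liraglutide and 127 to 144 CPM in model mice. The most abundant, Pmp22, had 16.4 ± 3.93 FPKM with liraglutide and 17.3 ± 0.513 FPKM in model mice, and Cnp and Prx stood at 0.11 and 0.22 on the log2 scale. Among the muscle's other cells, satellite cell markers had 0 of 5 called in edgeR, 1 at an unadjusted p under 0.05 and 0 by DESeq2 (Vcam1 at -0.32, Myf5 at 0.72, Chodl at -0.21). Endothelial markers had 0 of 7 called in edgeR, 2 at an unadjusted p under 0.05, 0 by DESeq2 and 1 by limma (Tek at -0.20, Pecam1 at -0.12). These counts at an unadjusted p stand beside the same 26.5% of all tested genes. Fibre markers had 4 of 10 higher in edgeR and DESeq2, against 1, Ckm, in limma. In edgeR 5.45% of all tested genes were called higher and 4.83% lower. Adipocyte markers had 7 of 8 lower (Lep by a log2 change of -1.59, Adipoq -0.89, Fabp4 -0.67); the Fabp4 call ended without liraglutide 1, model 1, model 2 or model 4 (edgeR adjusted p up to 0.0768) and with the length and GC offset. Tendon markers had 2 of 6 higher (Comp 3.03-fold, Chad 3.18-fold), with Thbs4, the most abundant, at 0.72 without a call in edgeR and called by DESeq2. The Chad call ended without model 1 (edgeR adjusted p = 0.0553) and without both liraglutide 2 and model 3 (0.0726).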

How the data were processed

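RNA of skeletal muscle was extracted with TRIzol and made into TruSeq stranded mRNA libraries, per the labels' protocols. The deposited table holds raw counts per gene and FPKM, per the file headers. Trimmomatic, HISAT2, HTSeq, Cufflinks and DESeq, with no version, and the build GRCh38 stand in the submitters' processing notes, although the gene identifiers are those of mouse; the build is open and no coordinates of the files are given. The deposited FPKM equalled count over library total and a whole-number gene length within 0.01 base for all 17484 genes with counts. A column with a misspelt group was mapped through its animal code.

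Counts were tested with edgeR 4.0.16 in R 4.3.3 (quasi-likelihood test, TMM scaling, filterByExpr with a minimum count of 10), which kept 12963 genes; p-values were adjusted over all of them. In data simulated for liraglutide against model on 12846 genes, 71 of 100 changes of 1.5-fold and 96 of 100 of 2-fold were recovered. The changes were placed only in genes with a mean above 100 counts per library. These rates thus do not cover scarcer genes such as Chrnd. Single values were tested by exact permutation of the 70 assignments. Counting intervals cover counting error only. Alternatives were limma 3.58.1 on log2(FPKM + 1 or 0.1), DESeq2 1.42.0, other scalings and filters, loess offsets (span 0.5) for length alone or length and GC content together (98.3% of tested genes), a replicate block and omissions. The length with GC offset and the joint omission of 2 libraries were added after seeing the data.

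The members and lists were chosen with earlier results of these data known. Lists were of the neuronal subunits, MuSK partners, cleft and basal lamina, postsynaptic cytoskeleton, neuregulin and ETS factors, subsynaptic nuclei, denervation and glycosylation, and of markers of fibres, Schwann cells, motor axons, satellite cells, adipocytes, endothelium, epididymis and tendon. Named were the 10 members, the 3 genes with the smallest p of each pathway list, and the 2 with the smallest p and the most abundant of each marker list; other names were added after values were seen.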

Additional observations from a re-analysis of the deposited data

Results flagged for a closer look

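Among 105 sets of 4 values (a named gene in a group), 5 held a sample farther from the others than 95% of such sets would by chance, about the 5% that chance gives. Of the receptor and organiser genes, Chrne was set apart by liraglutide 3, at 4.50 FPKM, against 6.91 to 7.20 FPKM in the other liraglutide libraries. Bche was 2.18 FPKM in liraglutide 4, against 1.36 to 1.47 FPKM in the others of its group. Utrn was 3.61 FPKM in liraglutide 4, against 2.80 to 2.84 FPKM. Dpagt1 was 5.38 FPKM in model 1, against 5.04 to 5.05 FPKM. Comp was 2.58 FPKM in model 2, against 5.84 to 6.45 FPKM.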

How the results depend on the processing

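Of 18 alternatives, 17 kept the call of Rapsn and 0 called another of the 9 tested members; without liraglutide 2 and model 3 the count was 0 higher. Single omissions left 1 higher and 0 lower. Over all genes 707 were higher and 626 lower; raw library sizes gave 338 and 1241, limma on log2(FPKM + 1) 359 and 1049, on log2(FPKM + 0.1) 352 and 1013, a length offset 716 and 362, length with GC 403 and 291, omission of liraglutide 2 and model 3 365 and 332, and single omissions 344 to 662 and 271 to 569, lowest in both without model 1. The lists' 3 higher and 7 lower became 1 and 1 with length and GC, 13 lower with raw sizes, 11 with limma on log2(FPKM + 1), 3 with length, 1 without liraglutide 2 and model 3, and 1 to 3 and 0 to 7 under single omissions. Where a library was left out, the cause of a change was not tested beyond there being fewer samples.

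Signs turned for members without a call: Chrnd with raw sizes (-0.043), limma (-0.018 and -0.033), and without liraglutide 2 and model 3 (-0.14), Chrne with DESeq2 size factors in edgeR (0.00024), and, under single omissions, Chrnd (-0.10 to 0.17), Chrne (-0.13 to 0.13) and Musk (-0.10 to 0.42). Of the list genes, Etv5 turned with raw sizes (-0.017) and limma (-0.012 and -0.016), Gabpa (0.045), Gfpt1 (0.033) and Alg2 (0.020) with length and GC, Pmp22 with raw sizes (-0.074), limma (-0.097 and -0.10) and the block (-0.024), and Alg2 (-0.12 to 0.031), Pmp22 (-0.11 to 0.12) and Stmn2 (-0.016 to 0.31) under single omissions. Causes were not tested.

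The log2 gamma to epsilon difference was 1.33 to 2.49 under single omissions and the Chrng difference 0.0755 to 0.132 CPM; the exact permutation p of 0.0286 without liraglutide 1 is fixed by that choice, since liraglutide 1 is the only library of its group at 0, and is no evidence. Same-numbered libraries deviated with correlations of 0.149, -0.0275, 0.143 and 0.0648, and differently numbered ones with -0.185 to 0.140. Not every library correlated best with its own number, and whether the numbers mark a shared batch or pairing was not tested. With the replicate block 515 genes were higher and 520 lower, and the SE of Musk was 0.149, against 0.272 without it. Rapsn kept its call (edgeR adjusted p = 0.0199), Cdc42 (0.0544) and Utrn (0.0561) lost theirs, and Sntb1 passed (0.0340). The gamma to epsilon difference stayed at 1.81 (exact sign-flip p = 0.25, of 4 pairs). Chrng, with 7 counts, was too scarce for the test across genes.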
